A study of Homo sapiens with 4 samples.

Results

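The genes described here are NFE2L2, which encodes the transcription factor NRF2, its inhibitor gene KEAP1, and 8 antioxidant target genes of NRF2, namely GCLC, GCLM, TXNRD1, SRXN1, NQO1, HMOX1, ME1 and OSGIN1. They were taken by gene symbol from the deposited array table, where all 10 had a row of their own among 22458 named genes. The cells were LN229, an established human glioblastoma line, examined 48 h after transfection with an siRNA pool against RAB38 (siRAB38, 2 arrays) or a nontargeting siRNA pool (NT, 2 arrays). In both groups the transfection was done without serum, which was added 24 h later to 1.5%. The knockdown was transient, in 1 cell line, with 1 pool of siRNAs against a small GTPase of vesicle trafficking. The values are log2 intensities after RMA, a method that corrects background, brings the arrays to a shared distribution and summarises the probes of each row.

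NRF2 is the main activator of the cellular antioxidant program. In unstressed cells KEAP1 binds it and hands it to a CUL3 ubiquitin ligase for destruction, and oxidants or electrophiles modify KEAP1 so that NRF2 accumulates, pairs with a small MAF protein and binds antioxidant response elements in its target genes. This control acts on the NRF2 protein, which arrays do not measure, so the mRNAs of the target genes are the usual readout of its activity. In glioblastoma the targets are known for supplying glutathione, thioredoxin and NADPH.

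Promoter sequence was examined because the target genes are defined by binding of NRF2 near them. RefSeq promoter windows (GRCh38.p14, 250 bases before to 50 after a gene start) were at hand for 9 of the 10 genes, in 12 windows, and HMOX1 was not among them. The core of the antioxidant response element, TGACNNNGC, was searched on both strands. It occurred in 5 of these windows, belonging to KEAP1, GCLM, TXNRD1 and ME1, and in 13.3% of all 35116 windows. For GCLM and TXNRD1, whose arrays did not overlap between the groups, and for ME1, whose arrays did, the 250 bases before the start are shown 5′ to 3′ with each match that lies wholly within them in capitals.
GCLM (chr1:93909431-93909680, minus strand): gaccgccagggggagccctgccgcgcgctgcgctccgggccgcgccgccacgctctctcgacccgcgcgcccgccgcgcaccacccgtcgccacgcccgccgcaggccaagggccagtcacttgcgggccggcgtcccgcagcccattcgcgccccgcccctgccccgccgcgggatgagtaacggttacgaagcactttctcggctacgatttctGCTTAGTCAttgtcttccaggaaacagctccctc
TXNRD1, upstream start (chr12:104215529-104215778, plus strand): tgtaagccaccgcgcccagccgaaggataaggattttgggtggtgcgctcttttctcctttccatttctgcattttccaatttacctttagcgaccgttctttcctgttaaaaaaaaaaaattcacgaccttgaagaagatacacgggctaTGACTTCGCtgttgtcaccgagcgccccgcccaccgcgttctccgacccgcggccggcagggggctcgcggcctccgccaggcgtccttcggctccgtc
ME1 (chr6:83431052-83431301, minus strand): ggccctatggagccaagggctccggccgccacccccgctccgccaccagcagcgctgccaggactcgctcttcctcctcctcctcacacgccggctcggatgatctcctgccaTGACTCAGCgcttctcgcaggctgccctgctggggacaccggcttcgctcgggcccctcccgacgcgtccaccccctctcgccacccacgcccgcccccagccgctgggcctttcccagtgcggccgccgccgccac
The match of GCLM, GCTTAGTCA, lay on the opposite strand from -34 to -26 relative to the start, and KEAP1 held the same letters from -31 to -23 before its downstream start, beside TGACACGGC from -54 to -46. In TXNRD1 the match shown, TGACTTCGC, ran from -99 to -91, another spanned the start itself, and the downstream start had GCTTTGTCA from -102 to -94. The match of ME1, TGACTCAGC, holds the AP-1 core TGACTCA, and ME1 had a further one from 12 to 20 after its start. OSGIN1 held only the AP-1 core, which 4.95% of all windows hold, and no window of NFE2L2, NQO1, GCLC or SRXN1 held the element's core. These are matches of letters, and elements outside the windows were not searched.

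RAB38 itself had log2 values of 2.52 and 3.43 in siRAB38 arrays, against 4.69 and 4.78 in NT arrays. Its mRNA was thus lower in both siRAB38 arrays, to 29.6% of the NT level. The log2 difference of RAB38 was -1.76 (standard error 0.30, adjusted p = 0.72 from limma). Its 95% confidence interval spans 17.4% to 50.3% of the NT level, and its siRAB38 arrays were 0.91 apart. The adjusted threshold of 0.05 thus did not call even the silenced gene, and failing it does not show that a gene was unchanged. The array medians lay between 3.47 and 3.51. Of 11 glioma and astroglial markers only AQP4 was among the dimmest 30% of genes. Of 4 microglia and leukocyte markers 3 were, all but CD68, as were 2 of 3 endothelial markers. None of the 3 neuronal markers was, and their summed log2 values ranged from 14.99 to 15.30 in siRAB38 and from 14.26 to 14.61 in NT. Of them SYT1 had 6.12 in all 4 arrays, 1 of 36 rows with identical values in every array, so it carries no information on a difference. RBFOX3 lay just above the dim genes, at intensity percentile 32.2, and overlapped between the groups. SNAP25 had 6.68 and 6.77 in siRAB38 arrays, against 6.09 in both NT arrays, and its part in the results below was not tested. Of all genes, 0 reached an adjusted p of 0.05 by limma, and 0 by the methods' t-test, while 1539 and 1473 had an unadjusted p under 0.05. The labels do not state that arrays of one group were separate cultures, and the p-values therefore measure only the spread between arrays, which may be technical. An exact permutation test of 2 arrays against 2 cannot give a two-sided p below 0.333.

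The 10 genes lay on both sides of the NT level. NFE2L2, NQO1 and HMOX1 were higher in both siRAB38 arrays than in both NT arrays, and GCLC, GCLM, TXNRD1 and SRXN1 were lower in both. KEAP1, ME1 and OSGIN1 overlapped between the groups. Thus 3 genes lay above without overlap, where 18.8% of all genes did, and 4 lay below, where 17.2% did. Either way the arrays of 7 of the 10 did not overlap, against 36.0% of all genes. None of the 10 passed an adjusted p of 0.05, as for all genes (0%), and the adjusted p ranged from 0.72 to 0.99 in limma. Every difference was small, at most 0.33 on the log2 scale in size. The 95% confidence interval held 0 for 9 of the 10 genes and excluded it for SRXN1. The intervals measure only the spread between arrays, and over all 10 genes they reached down to 61.6% and up to 148% of the NT level.

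**Figure D1:**
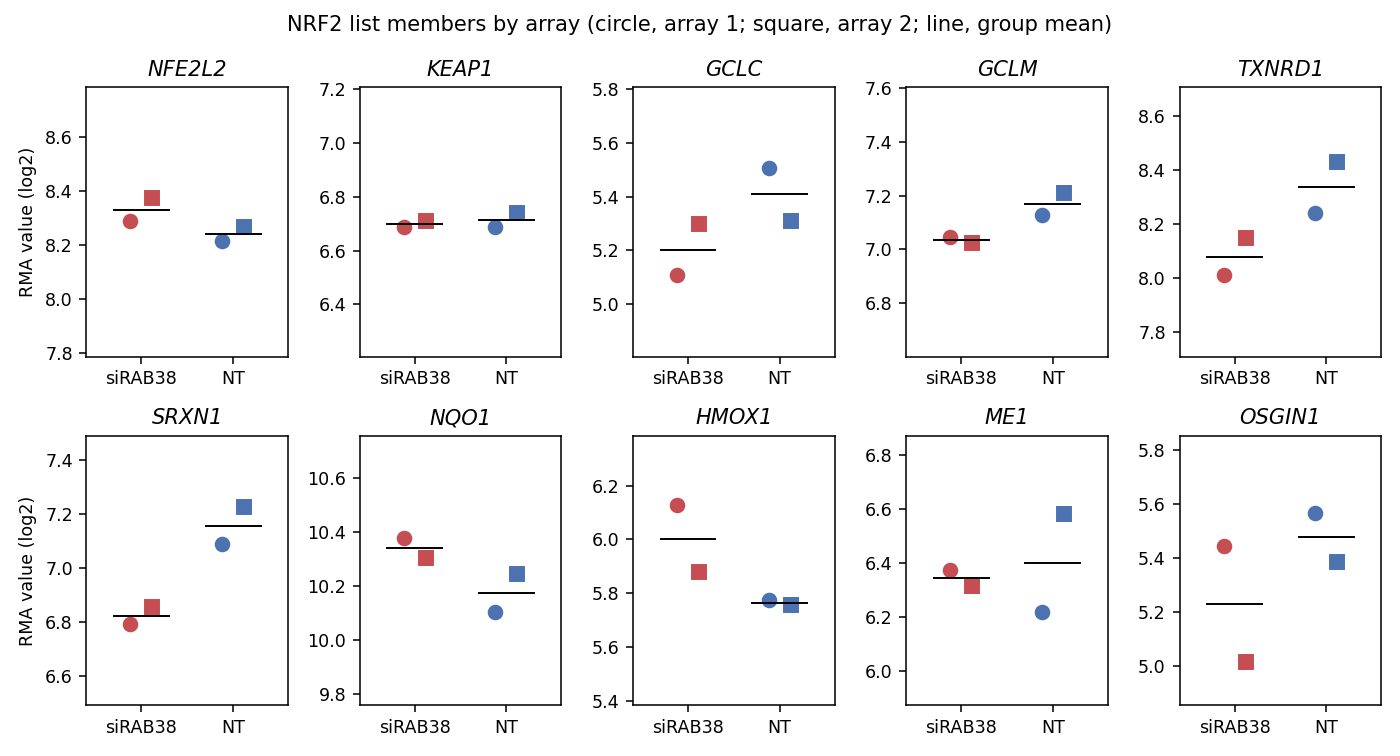
RMA values (log2, y axis, 1 log2 unit in each panel) of the 10 genes in each array, with siRAB38 left of NT, circles for array 1, squares for array 2 and lines for group means. The points of NFE2L2, NQO1 and HMOX1 lie higher in siRAB38, those of GCLC, GCLM, TXNRD1 and SRXN1 lower, and those of KEAP1, ME1 and OSGIN1 overlap.

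The factor and its sensor were close to the NT level. NFE2L2, the gene of NRF2, had log2 values of 8.29 and 8.37 in siRAB38 arrays, against 8.21 and 8.27 in NT arrays. The groups did not overlap, but the gap of 0.02 between them was narrower than the distance between the arrays of either group. The log2 difference was 0.09 (standard error 0.11, 95% confidence interval -0.18 to 0.36, adjusted p = 0.90 from limma), or 107% of the NT level, and 57.8% of all genes differed by as much. KEAP1, the adaptor that delivers NRF2 to the ubiquitin ligase, had 6.69 and 6.71 in siRAB38 arrays, against 6.69 and 6.74 in NT arrays. Its groups overlapped, with a log2 difference of -0.02 (standard error 0.10, 95% confidence interval -0.28 to 0.25). That interval spans 82.5% to 119% of the NT level and measures only the spread between arrays.

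Both subunits of the enzyme that makes the precursor of glutathione were lower in siRAB38 arrays. GCLC, the catalytic subunit of glutamate-cysteine ligase, had 5.11 and 5.30 in siRAB38 arrays, against 5.51 and 5.31 in NT arrays. The higher siRAB38 array and the lower NT array were only 0.01 apart, less than the arrays of either group differed. The log2 difference was -0.21 (standard error 0.13, 95% confidence interval -0.54 to 0.13, adjusted p = 0.78 from limma), and it ran from -0.30 without NT array 2 to -0.11 without NT array 1. The arrays of GCLC overlapped when quantile normalization was repeated over the named genes. GCLM, the modifier subunit that makes the enzyme more efficient, had 7.05 and 7.02 in siRAB38 arrays, against 7.13 and 7.21 in NT arrays. Its siRAB38 arrays were nearly equal and lay 0.08 below the lower NT array. The log2 difference was -0.14 (standard error 0.10, 95% confidence interval -0.40 to 0.13), 91.0% of the NT level.

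The genes that serve thioredoxin and peroxiredoxins were lower by more. SRXN1, sulfiredoxin, which restores overoxidised peroxiredoxins, had 6.79 and 6.85 in siRAB38 arrays, against 7.09 and 7.23 in NT arrays. The gap of 0.23 between its groups was wider than the distance between the arrays within siRAB38 (0.06) or NT (0.14). Its log2 difference of -0.33 (standard error 0.11, 95% confidence interval -0.62 to -0.05, adjusted p = 0.72 from limma) corresponds to 79.3% of the NT level. SRXN1 was the 1 gene of the 10 with an unadjusted p under 0.05 in limma in either direction, as had 6.85% of all genes. Of all genes 3.10% were lower at that level. TXNRD1 joined it when eBayes used an intensity trend. In size, 8.58% of all genes differed by as much as SRXN1. Without 1 array its log2 difference ran from -0.40 without NT array 1 to -0.27 without NT array 2, and its 95% confidence interval held 0 whichever of the 4 arrays was left out. TXNRD1, the cytosolic thioredoxin reductase, which uses NADPH to keep thioredoxin reduced, had 8.01 and 8.15 in siRAB38 arrays, against 8.24 and 8.43 in NT arrays. The groups did not overlap, with a gap of 0.09, although the siRAB38 arrays differed by 0.14 and the NT arrays by 0.19. The log2 difference of TXNRD1 was -0.26 (standard error 0.12, 95% confidence interval -0.58 to 0.06, adjusted p = 0.73 from limma), 83.6% of the NT level, and it was -0.16 without NT array 2.

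The quinone reductase and heme oxygenase genes lay on the other side. NQO1, which reduces quinones by 2 electrons and so avoids radical forms, had 10.38 and 10.30 in siRAB38 arrays, against 10.10 and 10.25 in NT arrays. The groups did not overlap, but the gap of 0.06 was smaller than the 0.14 between the NT arrays. The log2 difference of NQO1 was 0.16 (standard error 0.11, 95% confidence interval -0.12 to 0.45, adjusted p = 0.80 from limma), 112% of the NT level, and ran from 0.09 without NT array 1 to 0.24 without NT array 2. HMOX1, which breaks heme down to biliverdin, iron and carbon monoxide and is also held down by the repressor BACH1, had 6.13 and 5.88 in siRAB38 arrays, against 5.78 and 5.76 in NT arrays. The NT arrays of HMOX1 were nearly equal, and siRAB38 array 1 stood farther above them than siRAB38 array 2. Its log2 difference was 0.24 (standard error 0.13, 95% confidence interval -0.09 to 0.56, adjusted p = 0.75 from limma), 118% of the NT level. It was 0.36 without siRAB38 array 2 and 0.11 without siRAB38 array 1.

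The last pair overlapped between the groups. ME1, cytosolic malic enzyme, a source of NADPH, had 6.38 and 6.31 in siRAB38 arrays, against 6.22 and 6.58 in NT arrays. Both siRAB38 values lay between the NT values. The log2 difference of ME1 was -0.06 (standard error 0.15, 95% confidence interval -0.45 to 0.33), and its sign depended on 1 array, with 0.13 without NT array 2 and -0.24 without NT array 1. OSGIN1, an oxidative stress induced growth inhibitor, had 5.45 and 5.01 in siRAB38 arrays, against 5.57 and 5.39 in NT arrays. The low value of siRAB38 array 2 set its log2 difference of -0.25 (standard error 0.18, 95% confidence interval -0.70 to 0.21), which was -0.03 without that array. OSGIN1 had the widest interval of the 10 genes.

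**Figure D2:**
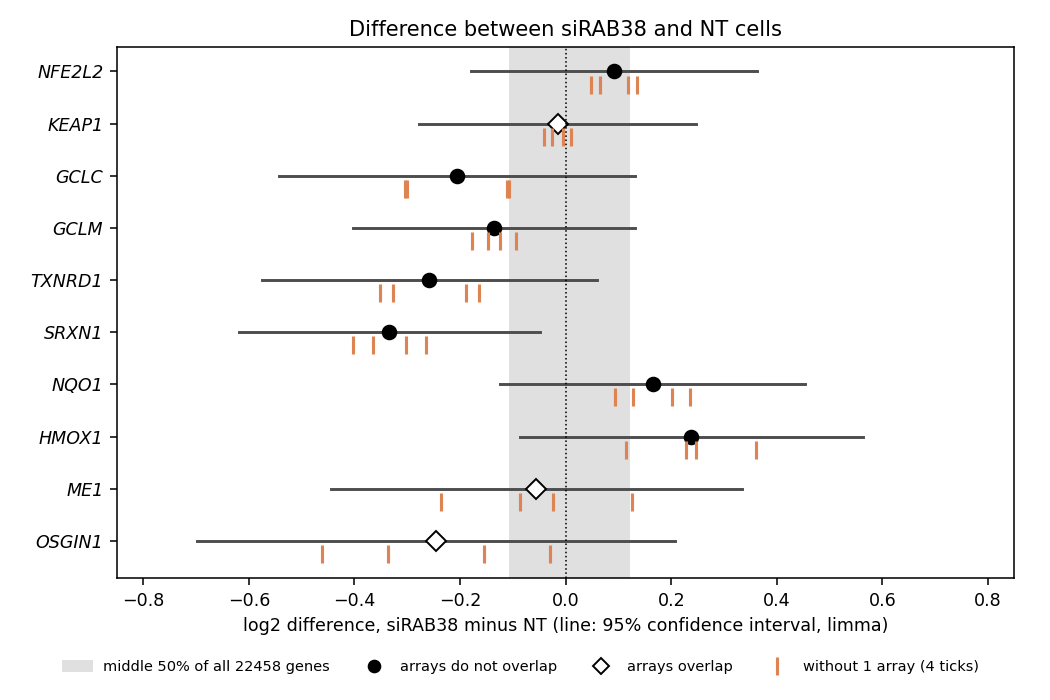
Log2 difference, siRAB38 minus NT, of the 10 genes (x axis) with the 95% confidence interval from limma as a line, where filled circles are genes whose arrays do not overlap, open diamonds those that overlap, orange ticks the difference without 1 array, and the grey band holds the middle 50% of all 22458 genes. The interval excludes 0 for SRXN1 only, and the ticks of KEAP1 and ME1 lie on both sides of 0.

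As a group, 3 of the 10 genes had a log2 difference above 0 and 7 below, where 51.4% of all genes lay above and 48.3% below. The median was -0.10, against 0.01 for all genes, and -0.17 over the 8 target genes without NFE2L2 and KEAP1. Centred on each gene's mean, the 10 genes averaged -0.02 and -0.05 in siRAB38 arrays, against 0.01 and 0.07 in NT arrays. NT array 2 was thus the highest, and without it 5 of the 10 lay above 0 and the median was -0.04. Without siRAB38 array 2 the median was -0.03, and that of the 8 target genes was -0.08. The genes whose 4 values lay nearest to those of NFE2L2, each centred on its own mean, were ZFYVE16, MTARC2 and TULP2. They had Euclidean distances of 0.014, 0.015 and 0.015 over 4 arrays, where the median gene lay at 0.27. As they were picked for the smallest of 22457 distances, lying below the median was given by the selection. TULP2 was among the dimmest 30% of genes.

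The wider pathway was examined through 9 lists holding 162 measured genes. None of them passed an adjusted p of 0.05, 7 were higher and 0 lower at an unadjusted p under 0.05 in limma, where 3.75% and 3.10% of all genes were, and 31 (19.1%) lay above and 24 (14.8%) below without overlap, where 18.8% and 17.2% of all genes did. The list medians ran from -0.01 to 0.09. Among 19 partners and regulators of NRF2, 12 lay above 0 and 7 below, with a median of 0.01. BACH1, the repressor that competes with NRF2 at its elements, had 4.38 and 4.64 in siRAB38 arrays, against 4.40 and 4.32 in NT arrays. siRAB38 array 1 lay between the NT arrays of BACH1, so its groups overlapped. SQSTM1, the autophagy receptor p62, which binds KEAP1 and is itself a target of NRF2, had 10.24 and 10.33 in siRAB38 arrays, against 10.01 and 10.14 in NT arrays, a log2 difference of 0.21 (standard error 0.11). Its groups did not overlap. CUL3 and MAFG, the scaffold of the ligase and a binding partner of NRF2, had log2 differences of 0.01 and 0.02 with overlapping arrays. BACH2, a relative of BACH1 best known from lymphocytes, had 2.72 and 2.89 in siRAB38 arrays, against 2.41 and 2.05 in NT arrays, and NFE2L3, a relative of NFE2L2, had a log2 difference of -0.34 (standard error 0.16), which was -0.14 without NT array 1 and -0.53 without NT array 2.

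**Figure D3:**
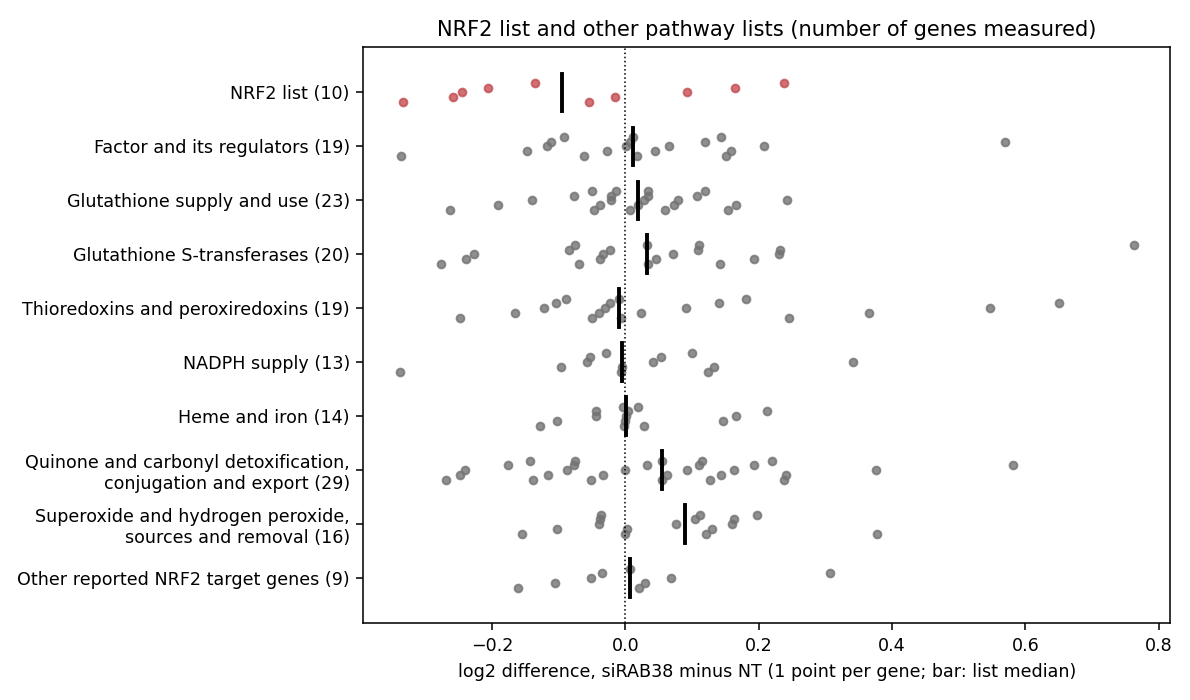
Log2 difference, siRAB38 minus NT (x axis), of each gene in the NRF2 list (red, 10 genes) and in 9 other pathway lists (grey), with the number measured in parentheses and a black bar at the list median. The bar of the NRF2 list lies at -0.10 and those of the other lists between -0.01 and 0.09.

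Among 23 genes of glutathione supply and use, 13 lay above 0 and 10 below, with a median of 0.02. SLC7A11, the cystine importer that feeds glutathione synthesis, had 7.17 and 7.23 in siRAB38 arrays, against 7.06 and 7.29 in NT arrays. GSR, glutathione reductase, had 7.82 and 7.85 in siRAB38 arrays, against 7.85 and 7.92 in NT arrays. Both genes overlapped between the groups, unlike GCLC and GCLM. The genes of this list with the smallest p were GPX8, a peroxidase of the endoplasmic reticulum, with a log2 difference of -0.26, the secreted peroxidase GPX3 with 0.24, and GGCT, which acts in glutathione breakdown, with -0.19. Of 20 glutathione S-transferase genes 11 lay above 0, with GSTT1 at -0.24, GSTM5 at -0.28 and MGST2, among the dimmest 30% of genes, at 0.19. Where transferases of this list are close in sequence, their probes may share signal.

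Of 19 genes of the thioredoxins and peroxiredoxins 8 lay above 0 and 11 below, with a median of -0.01 that was 0.07 without siRAB38 array 2. SESN1, a p53-induced stress protein of the sestrin family, had 4.70 and 4.83 in siRAB38 arrays, against 4.28 and 4.16 in NT arrays, a log2 difference of 0.55 (standard error 0.11, 95% confidence interval 0.26 to 0.84, adjusted p = 0.72 from limma). SESN3, a sestrin known as a FOXO target, had 5.77 and 5.95 in siRAB38 arrays, against 5.03 and 5.39 in NT arrays, a log2 difference of 0.65 (standard error 0.16, 95% confidence interval 0.24 to 1.06). Both genes were higher in every siRAB38 array, with a gap of 0.43 between the groups for SESN1, far wider than the distances within a group, and of 0.38 for SESN3, whose NT arrays were 0.37 apart. SESN2, named after its values were seen, had 5.64 and 5.30 in siRAB38 arrays, against 4.95 and 5.27 in NT arrays, with a narrow gap of 0.04 between the groups. Over this list 5 genes were higher without overlap, or 26.3%, where 18.8% of all genes were. SESN1, SESN2 and SESN3 were among these 5. In the other direction 3 genes, or 15.8%, were lower without overlap, where 17.2% of all genes were. PRDX3, the mitochondrial peroxiredoxin, had 8.87 in both siRAB38 arrays, against 9.13 and 9.11 in NT arrays, a log2 difference of -0.25 (standard error 0.10, 95% confidence interval -0.51 to 0.01). PRDX1, a cytosolic peroxiredoxin and substrate of SRXN1, also named after its values were seen, had 8.63 and 8.60 in siRAB38 arrays, against 8.76 and 8.80 in NT arrays. The other peroxiredoxin genes measured, PRDX4 with a log2 difference of 0.09, PRDX2 with -0.04 and PRDX6 with -0.10, were likewise named after their values were seen, and only PRDX4 of these did not overlap. TXN, thioredoxin, the substrate of TXNRD1, had 9.94 and 10.07 in siRAB38 arrays, against 9.75 and 9.98 in NT arrays, which overlapped.

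**Figure D4:**
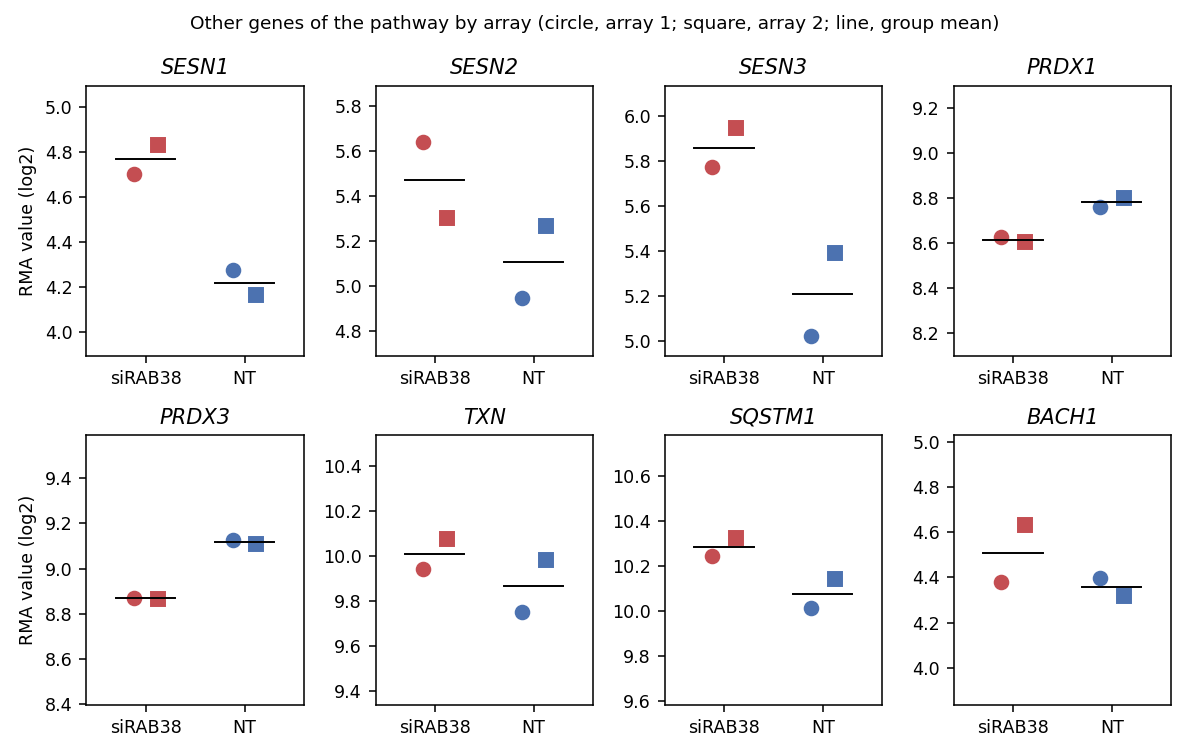
RMA values (log2, y axis, 1.2 log2 units in each panel) of 8 other genes of the pathway in each array, with siRAB38 left of NT, circles for array 1, squares for array 2 and lines for group means. SESN1, SESN2, SESN3 and SQSTM1 are higher in both siRAB38 arrays, PRDX1 and PRDX3 lower in both, and TXN and BACH1 overlap.

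The lists of NADPH supply, of heme and iron and of detoxification had medians of -0.01, 0.0008 and 0.05. Of 13 genes of NADPH supply 6 lay above 0 and 7 below, with RPE, of the pentose phosphate pathway, at a log2 difference of 0.34, NADK2, the mitochondrial NAD kinase, at -0.34 and NNT, the mitochondrial transhydrogenase, at 0.13. ME1 with -0.06 lay within this range. Of 14 genes of heme and iron 7 lay above 0, 6 below and 1 at 0. FTL, the ferritin light chain, which NRF2 activates as it does HMOX1, had 10.92 and 10.88 in siRAB38 arrays, against 10.61 and 10.89 in NT arrays. The siRAB38 arrays of FTL lay near NT array 2 and above NT array 1. FTMT, mitochondrial ferritin, at 0.17 and SLC40A1, the iron exporter, at -0.13 were both among the dimmest 30% of genes. Of 29 genes of quinone and carbonyl detoxification, conjugation and export, 16 lay above 0, 12 below and 1 at 0. AKR1B10, an aldo-keto reductase and a frequent NRF2 target in cancer cells, had 3.73 and 3.36 in siRAB38 arrays, against 3.06 and 2.87 in NT arrays, a log2 difference of 0.58 (standard error 0.16, 95% confidence interval 0.17 to 1.00). Its groups did not overlap, but AKR1B10 has a close paralog, AKR1B15, whose signal its probes may share, which was not tested. AKR1B15 itself had a log2 difference of 0.05 and was among the dimmest 30% of genes. UGT2B7, a glucuronosyltransferase, had a log2 difference of 0.38, among the dimmest 30% of genes, and ABCG2, a drug exporter, of -0.24.

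Among 16 genes that make or remove superoxide and hydrogen peroxide, 10 lay above 0 and 6 below, with a median of 0.09. The genes of this list with the smallest p were XDH, xanthine dehydrogenase, with a log2 difference of -0.16, the NADPH oxidase gene NOX5 with 0.38 and its relative DUOX1 with 0.20. NOX5 overlapped between the groups and had 0.01 without siRAB38 array 2, and DUOX1 had 0.02 without NT array 1. XDH and NOX5 were among the dimmest 30% of genes. Of 9 other reported NRF2 target genes 5 lay above 0, with PLEC, a cytoskeletal linker, at a log2 difference of 0.31. PPARGC1B, a transcriptional coactivator, was at -0.16 and CES1, a carboxylesterase among the dimmest 30% of genes, at -0.11. PIR was not analysed here.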

How the data were processed

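RNA of LN229 cells was labelled with the Affymetrix WT Plus kit. The log2 values of the 4 arrays, in 1 table, were made by the authors with RMA. Version numbers in the submitters' processing notes are 1.60.0 for affy and 3.5.1 for R. The probe definition and genome build are not given in the sources used here. Because RMA equalises the distributions of the arrays, a shift common to most genes is removed, and differences of dim genes are understated. Of 23786 rows, 22458 carried 1 gene symbol, 0 several and 1328 none, which were left out. Arrays were grouped by title.

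The groups were compared gene by gene in R 4.3.3 by limma 3.58.1 (lmFit, eBayes without trend, prior degrees of freedom 3.15), with Benjamini-Hochberg adjustment over 22458 genes and a threshold of 0.05. The paper names ANOVA and t-tests in general and refers to earlier work for the arrays, so this model is a choice made here. The paper does not state that a t-test was applied gene by gene to the arrays. The code was checked on simulated data drawn from the variances of the same model. Such data cannot show whether the model suits these arrays. Arrays overlap unless both values of a group exceed both of the other. The number of arrays limits the precision.

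The 10 members and 9 lists (177 genes, 162 measured, no gene in more than 1 list) were chosen with earlier results of these data known. Besides the members, genes were named if among the 3 smallest p of a list or fixed as central to the pathway (BACH1, MAFG, CUL3, SQSTM1, SLC7A11, GSR, TXN, FTL, PIR, and 1 more that is not reported here), as were RAB38 and the 3 genes nearest to NFE2L2. Alternatives covered normalization, dim genes, rows, variance prior, array weights, the replicate block, the t-test and leaving out each array.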

Additional observations from a re-analysis of the deposited data

How the results depend on the processing

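At an adjusted threshold of 0.05, 0 genes were called by limma or the methods' t-test under any alternative run. All 10 members kept their sign under the 9 alternatives that used all 4 arrays. When quantile normalization was repeated, 3 and not 4 members lay below without overlap. With the replicate block, where arrays share only a number (same-numbered deviations correlated at -0.05 across genes), 0 genes passed the adjusted threshold, 1249 had an unadjusted p under 0.05 against 1539 without it, and the adjusted p of SRXN1 was 0.80.

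Leaving out 1 array in turn, 8 of 10 members kept their sign. KEAP1 ran from -0.042 to 0.011 and ME1 from -0.24 to 0.13, with the positive values without NT replicate 2. The median of the 10 members ran from -0.13 to -0.028 and the number above 0 from 3 to 5. Medians ran from -0.025 to 0.043 for partners and regulators, -0.026 to 0.071 for glutathione supply and use, -0.030 to 0.083 for glutathione S-transferases, -0.049 to 0.067 for thioredoxins and peroxiredoxins, -0.037 to 0.033 for NADPH supply, -0.039 to 0.058 for heme and iron, -0.060 to 0.039 for quinone and carbonyl detoxification, 0.014 to 0.079 for superoxide and hydrogen peroxide and -0.052 to 0.032 for other targets. Genes above 0 ran from 8 to 14 for thioredoxins and peroxiredoxins, 5 to 11 for heme and iron and 3 to 6 for other targets.

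Without the dimmest 30% of genes, the detoxification list lost 9 of its 29 genes and had 10 above 0 and a median of -9.6e-05. The superoxide and hydrogen peroxide list lost 7 of its 16 genes. It had 6 above 0 and a median of 0.10, against 10 above 0 and a median of 0.09 with all 16. With all 4 arrays, the confidence interval from limma held 0 for 9 of the 10 members, whose differences could not be told from array spread. The interval of SRXN1 excluded 0, but SRXN1 did not pass the adjusted threshold (adjusted p = 0.72 from limma).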
